A study of Mus musculus with 12 samples.

Results

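Potassium channel genes were followed in the hypothalamus of mice with 0, 1 or 2 mutant copies of Wfs1. Members were the rows of the deposited count table whose gene symbol begins with Kcn and a further letter. Duplicate rows, pseudogenes and antisense or overlapping transcripts were left out, which removed the non-coding transcript Kcnq1ot1. The rule gave 94 of the 24020 rows. The mice belonged to the line Wfs1tm1Koks, a mutant allele of Wfs1, which encodes the endoplasmic reticulum membrane protein wolframin. The groups were 4 wild-type, 4 heterozygous and 4 homozygous individuals, and the labels name no treatment, age or sex for any of them. Total RNA of the dissected hypothalamus was made into cDNA with an amplification kit and read on a SOLiD sequencer, with 1 library per animal. The mutant allele is carried by the whole animal, so changes in one cell type and in the share of that cell type enter the same value.

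Potassium channels let potassium leave or enter a cell through a pore whose narrowest stretch, the selectivity filter, is built from a short signature shared by nearly all families. Voltage-gated members repolarise the action potential, inward rectifiers and two-pore channels set the resting potential, and calcium- or sodium-activated members slow firing after activity. Hypothalamic neurons use them to tune firing to hormones and nutrients, and astrocytes use inward rectifiers to clear potassium from the extracellular space.

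Between homozygous and wild-type mice, 7 potassium channel genes rose and 8 fell, or 27.8% of the 54 tested, against 25.4% of all genes tested. The falls included the M-current gene Kcnq3, the ERG channel gene Kcnh2 and the acid-sensitive leak channel genes Kcnk3 and Kcnk9. The rises included the inward rectifier genes Kcnj2 and Kcnj16, the leak channel gene Kcnk1 and the small-conductance calcium-activated gene Kcnn2. The calls of Kcnq3, Kcnk3 and Kcnj16 ended without homozygous replicates 4 and 5, a pair of libraries that stood apart (adjusted p = 0.102, 0.285 and 0.395 in edgeR). That of Kcnj2 ended when each library's trend on GC content was removed, and that of Kcnn2 without wild-type replicate 2 or 3. With each library's slope on GC content as a covariate, 0 of the 15 calls were kept. No member passed the test between heterozygous and wild-type mice.

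The selectivity filters of 7 of these 15 genes are shown because members with the same signature changed in opposite directions. Each line is the coding strand of the annotated transcript in GENCODE M21 (build GRCm38, the same assembly as mm10), 5′ to 3′. Capitals mark the 15 bases that encode the filter signature. For the two-pore genes, which carry a pair of filters, the second is shown.
Kcnq3: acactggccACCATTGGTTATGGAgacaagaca
Kcnh2: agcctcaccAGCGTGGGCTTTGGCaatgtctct
Kcnk3: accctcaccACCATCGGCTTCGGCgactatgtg
Kcnk9: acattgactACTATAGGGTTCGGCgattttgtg
Kcnk1: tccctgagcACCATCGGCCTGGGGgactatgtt
Kcnj3: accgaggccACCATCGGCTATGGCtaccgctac
Kcnj2: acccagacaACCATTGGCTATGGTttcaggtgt

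Kcnq3, which fell, has its stretch at chr15:66023722-66023754 on the minus strand. Kcnk3 (chr5:30622193-30622225, plus strand) and Kcnk9 (chr15:72512710-72512742, minus strand), which both fell, differ at 3 of the 15 filter bases, each the last base of a codon, so the encoded residues are the same. Kcnj3, which fell (chr2:55437618-55437650, plus strand), differs from Kcnj2, which rose (chr11:111072198-111072230, plus strand), at 2 last codon bases. These opposite calls did not hold in every edgeR fit. That of Kcnj3 ended without homozygous replicates 4 and 5 (adjusted p = 0.0763). That of Kcnj2 ended when each library's trend on GC content was removed (adjusted p = 0.120). The stretches of Kcnh2 (chr5:24325546-24325578, minus strand) and Kcnk1 (chr8:126025320-126025352, plus strand) encode phenylalanine and leucine where Kcnq3, Kcnj2 and Kcnj3 encode tyrosine, and Kcnk3 and Kcnk9 also encode phenylalanine. Each of these stretches lies within a single coding exon.

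Library totals ran from 979394 to 2330872 counts. Wfs1 separated the genotypes in the direction of the labels, at 146 ± 24.6 CPM (counts scaled to library size; mean ± SD, n = 4) in wild-type mice, against 89.6 ± 9.28 in the heterozygous group and 17.1 ± 2.32 in the homozygous group. Homozygous replicates 4 and 5 stood apart: the slope of log2 CPM on transcript GC content, per percentage point, was -0.0477 and -0.0521 in them, against -0.00261 and 0.00172 in homozygous replicates 1 and 2, -0.00107 to 0.0214 in heterozygous and 0.00245 to 0.0330 in wild-type libraries. The ribosomal RNA precursor Rn45s was at 95.6 and 85.8 CPM in these 2 libraries, 316 and 352 in the other homozygous, 352 to 788 in heterozygous and 958 to 1983 in wild-type libraries. Homozygous replicate 5 is a column whose number no label carries, and its genotype prefix placed it. Because both measures differ between genotypes, each channel gene called between homozygous and wild-type mice is also given without homozygous replicates 4 and 5 and with a GC offset, which removes each library's trend on GC content. The part of library quality in the results was not tested beyond these values.

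Of the 94 genes, 6 had no count in any library (Kcnk15, Kcna7, Kcne3, Kcnj1, Kcnk16 and Kcnk7). A further 34 were counted but fell under the filter on low counts, with totals of 2 to 106 over the 12 libraries and 17 of them under 10. These include Kcnq1 of the M-current family, Kcnj8 and Kcnj13 of the inward rectifiers, and Kcnh8, the most counted of them. The remaining 54 were tested among 10737 genes. Summed over all members, potassium channel RNA was 3882 to 4561 CPM in wild-type, 4197 to 4310 in heterozygous and 4285 to 4612 in homozygous libraries, so the summed level overlapped between the 3 genotypes.

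Levels were compared between genes as CPM per kilobase of transcript in wild-type mice, where transcript choice affects the value. Kcnj10, the main potassium-buffering inward rectifier of astrocytes, was highest at 150 ± 21.3 CPM per kb (SD, n = 4). Kcnc1, a fast-repolarising channel of rapidly firing neurons, followed at 53.6 ± 3.83. Kcnip4, an accessory subunit of A-type channels, was at 41.8 ± 9.51 and Kcna2, an axonal delayed rectifier, at 41.6 ± 8.05 CPM per kb, which do not differ beyond their spread. Kcnn3 (36.9 ± 3.51), Kcnip1 (36.2 ± 2.64) and Kcna1 (33.6 ± 4.64) came next, again within each other's spread. In all, 12 of 54 genes were over 20 CPM per kb and 18 were under 5. Among the genes that changed, the level per kb in wild-type mice ran from 2.55 for Kcnk9 and 2.90 for Kcnq3 to 41.8 for Kcnip4.

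**Figure D1:**
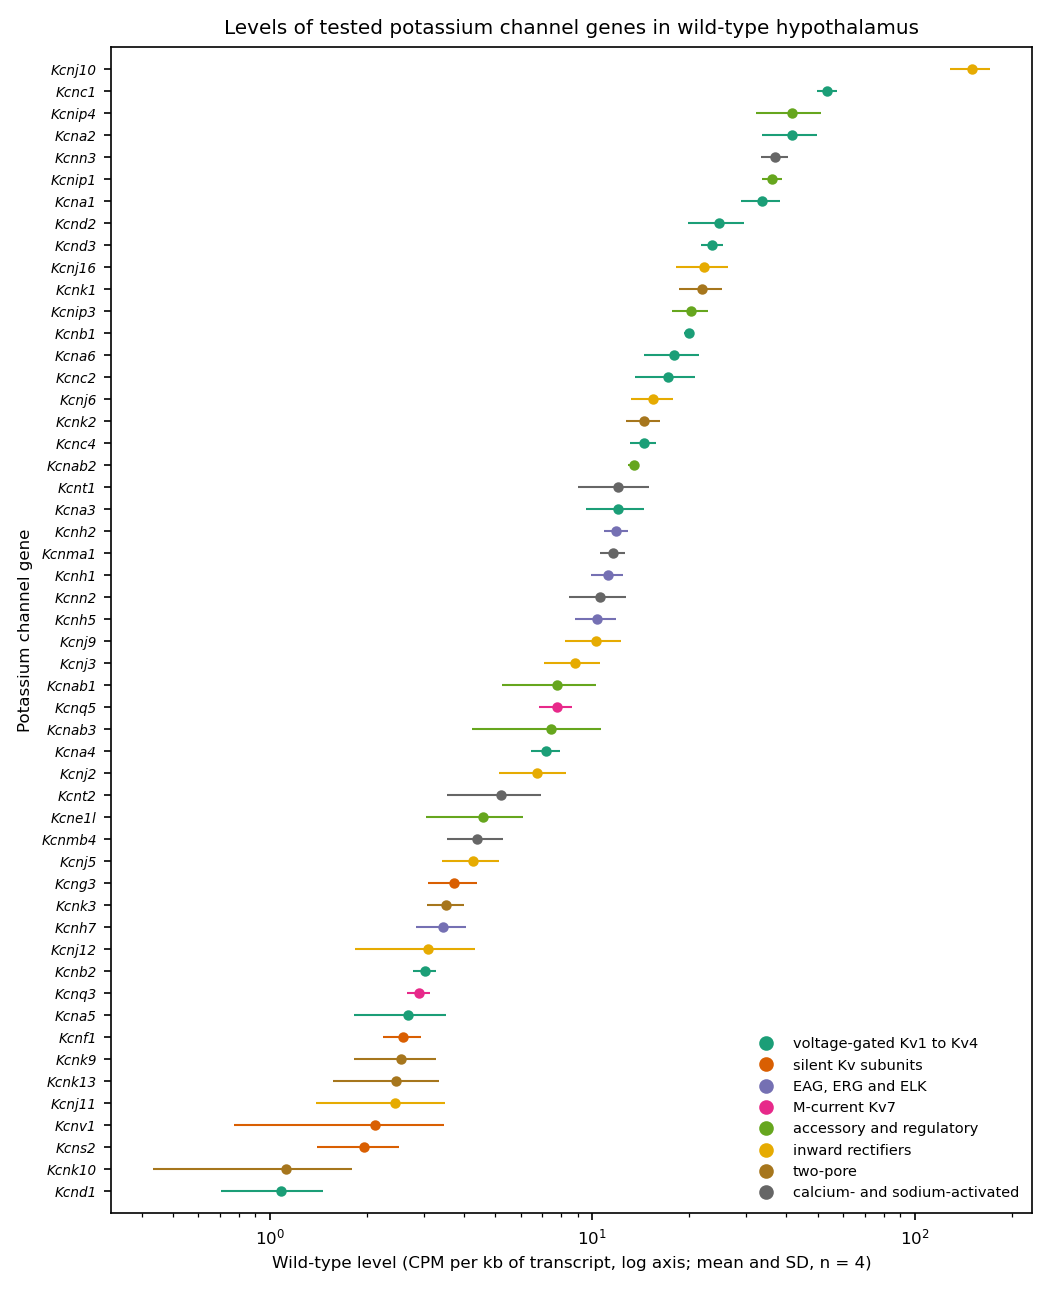
Wild-type level of 52 of the tested potassium channel genes, in CPM per kb of transcript on a log axis. Points are means and bars SD over 4 libraries, coloured by family, and Kcnj10 at 150 lies apart from Kcnc1 at 53.6 and the rest.

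The first comparison, homozygous against wild-type, asks how the members respond to loss of both Wfs1 copies. With edgeR's quasi-likelihood test and Benjamini-Hochberg adjustment over all genes tested, 15 of 54 members were called at an adjusted p under 0.05, or 27.8%, against 25.4% of all genes tested. Higher calls were 7 (13.7% of all genes) and lower calls 8 (11.6% of all genes), so the share of members called was near that of the whole table. Members' median log2 fold change was -0.06, against -0.03 over all genes tested. For 7 of the 8 families, the counts of higher and lower calls were as follows. They were 1 and 2 of 15 tested voltage-gated genes (Kcna, Kcnb, Kcnc and Kcnd), 0 and 0 of 4 silent subunits, and 0 and 1 of 4 EAG, ERG and ELK channels. The counts were 1 and 0 of 7 accessory genes, 2 and 1 of 9 inward rectifiers, 1 and 2 of 6 two-pore genes, and 2 and 0 of 6 calcium- and sodium-activated genes. Changes were moderate, with 2 of 15 past 2-fold. In 10 of all 54 tested members, or 18.5%, the libraries of the 2 genotypes did not overlap, against 23.6% of all genes tested. The called members held 9 of these 10. Called genes are chosen for their separation, so that share is not comparable with the share of all genes tested. The 15 calls depend on the libraries used, since 8 were left without wild-type replicate 2, 8 without wild-type replicate 3, 9 without homozygous replicate 5 and 6 without homozygous replicates 4 and 5.

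**Figure D2:**
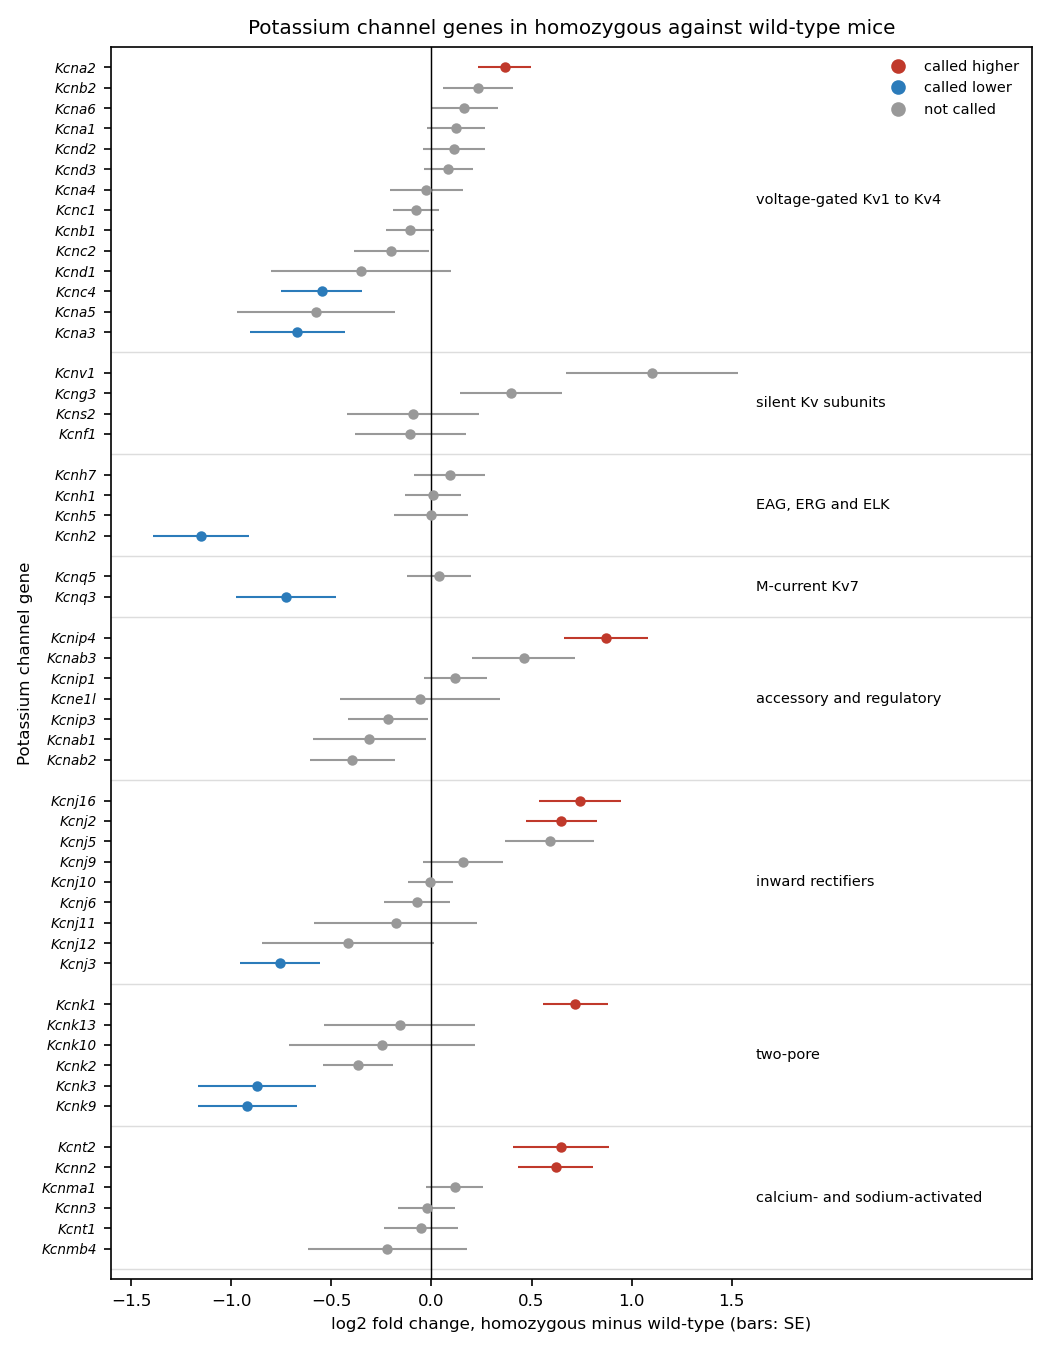
Log2 fold change of 52 of the tested members between homozygous and wild-type mice, by family, with bars of 1 SE. Higher and lower calls are coloured, and the largest fall is that of Kcnh2 at -1.15.

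In the lists of values that follow, wild-type libraries are in the order of replicates 1, 2, 3 and 5, heterozygous of 1, 2, 3 and 4, and homozygous of 1, 2, 4 and 5. Fold changes are log2 with the SE, homozygous minus wild-type, and adjusted p-values are from edgeR.

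The M-current slows repetitive firing and is carried by channels to which Kcnq3 contributes. Kcnq3 was at 36.7, 34.3, 35.7 and 30.5 CPM in wild-type, 33.4, 40.0, 19.0 and 28.9 in heterozygous and 23.5, 21.1, 26.4 and 9.03 in homozygous libraries. The homozygous values lay under all wild-type values, with replicate 5 the lowest. It fell by 0.73 ± 0.250 (adjusted p = 0.0352), and by 0.91 (0.00927) with the GC offset. Without homozygous replicates 4 and 5 the value was -0.62 (0.102), and leaving out any 1 of homozygous replicate 2 or 5 or wild-type replicate 1, 2 or 3 gave an adjusted p of 0.0515 to 0.0977. Kcnq5, of the same family, was at 54.1 ± 6.38 CPM in wild-type and 55.7 ± 4.90 in homozygous mice.

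Kcnh2 encodes the ERG channel, which repolarises slowly and damps firing. It was at 49.1, 56.1, 45.9 and 49.1 CPM in wild-type, 25.7, 48.8, 29.3 and 28.9 in heterozygous and 21.5, 32.8, 15.7 and 14.7 in homozygous libraries. No homozygous library reached the wild-type range, and 3 of the 4 heterozygous libraries also lay under it. Kcnh2 fell by 1.15 ± 0.240 (adjusted p = 0.00141), and by 0.84 (0.0176) without homozygous replicates 4 and 5 and 0.70 (0.0117) with the GC offset. Of its relatives, Kcnh1, the most abundant of the family by CPM, was at 81.1 ± 9.27 CPM in wild-type and 82.0 ± 8.23 in homozygous mice (log2 fold change 0.01).

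Two-pore channels carry background leak current. Kcnk9 was at 35.9, 35.2, 36.4 and 18.0 CPM in wild-type, 23.8, 20.4, 22.7 and 21.0 in heterozygous and 22.1, 12.6, 16.5 and 14.7 in homozygous libraries. Wild-type replicate 5 lay within the homozygous range, apart from the other wild-type libraries, so the groups overlapped. Kcnk9 fell by 0.92 ± 0.248 (adjusted p = 0.00886), and by 0.88 (0.0383) without homozygous replicates 4 and 5 and 0.99 (0.0041) with the GC offset. Kcnk3, which forms joint channels with Kcnk9, was at 11.0, 13.3, 14.6 and 14.9 CPM in wild-type, 12.9, 12.5, 11.7 and 11.2 in heterozygous and 8.05, 9.88, 4.94 and 4.52 in homozygous libraries. All homozygous libraries lay under both other groups, though replicates 4 and 5 held 6 and 4 reads. Kcnk3 fell by 0.87 ± 0.295 (adjusted p = 0.0328), with -0.56 (0.285) without homozygous replicates 4 and 5 and -0.48 (0.238) with the GC offset. Leaving out homozygous replicate 4 or 5 or wild-type replicate 2, 3 or 5 ended the call (0.0575 to 0.102).

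Kcnk1 moved the other way. It was at 49.9, 49.5, 39.3 and 57.2 CPM in wild-type, 78.4, 65.5, 80.6 and 68.9 in heterozygous and 67.7, 77.2, 81.6 and 100 in homozygous libraries. All 8 libraries with a mutant copy lay above all 4 wild-type libraries. Kcnk1 rose by 0.72 ± 0.163 (adjusted p = 0.00265), and by 0.57 (0.0298) without homozygous replicates 4 and 5 and 0.85 (0.00059) with the GC offset. Kcnk2, a mechanically and lipid-gated leak channel gene, was not called, at 51.6 ± 6.26 CPM in wild-type and 40.9 ± 7.60 in homozygous mice (-0.37, adjusted p = 0.130), with -0.58 (0.0505) without homozygous replicates 4 and 5 and -0.28 (0.272) with the GC offset.

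Inward rectifiers divided. Kcnj2, which sets the resting potential in neurons and vessels, was at 42.5, 44.7, 26.2 and 32.9 CPM in wild-type, 46.9, 53.8, 45.4 and 47.9 in heterozygous and 54.3, 55.2, 55.2 and 64.4 in homozygous libraries. The 3 genotypes did not overlap, with heterozygous between the others. Kcnj2 rose by 0.65 ± 0.177 (adjusted p = 0.00968), and by 0.60 (0.0444) without homozygous replicates 4 and 5. With the GC offset the value was 0.37 (0.120). Kcnj16, which joins Kcnj10 in astrocytic channels, was at 102, 86.6, 68.5 and 72.7 CPM in wild-type, 94.5, 81.8, 102 and 74.8 in heterozygous and 91.9, 101, 198 and 169 in homozygous libraries. Homozygous replicates 4 and 5 were far above all other libraries, and replicates 1 and 2 lay within the wild-type range. Its call (0.74 ± 0.204, adjusted p = 0.0102) held with the GC offset (0.48, 0.0351), but the value was 0.24 (0.395) without homozygous replicates 4 and 5 and the call ended without replicate 4 alone (adjusted p = 0.0616). Its partner Kcnj10 was at 811 ± 115, 812 ± 47.4 and 807 ± 89.0 CPM in mice with 0, 1 and 2 mutant copies, with a log2 difference of -0.01 ± 0.114 between homozygous and wild-type.

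Kcnj3 encodes the common subunit of the G-protein-gated channels through which inhibitory receptors hyperpolarise neurons. It was at 44.0, 59.0, 38.6 and 42.3 CPM in wild-type, 34.1, 44.6, 31.5 and 29.5 in heterozygous and 28.8, 31.0, 23.1 and 22.6 in homozygous libraries. The homozygous libraries lay under all wild-type libraries. Kcnj3 fell by 0.76 ± 0.199 (adjusted p = 0.0078) and by 0.95 (0.00137) with the GC offset, with -0.59 (0.0763) without homozygous replicates 4 and 5. Of the other subunits of these channels, Kcnj6 was at 47.9 ± 7.08 and 44.8 ± 5.17 CPM in wild-type and homozygous mice and Kcnj9 at 39.5 ± 7.77 and 43.9 ± 8.45, neither called. Kcnj5 was at 18.3, 15.2, 24.0 and 22.4 CPM in wild-type and 30.2, 22.4, 40.4 and 31.6 in homozygous libraries (0.59, adjusted p = 0.0541). It passed the test with the GC offset (0.63, adjusted p = 0.0399), and the value was 0.36 (0.385) without homozygous replicates 4 and 5.

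Calcium- and sodium-activated channels shape the pause after a burst. Kcnn2 was at 48.4, 32.3, 32.8 and 42.3 CPM in wild-type, 36.0, 44.6, 56.4 and 61.0 in heterozygous and 55.7, 66.9, 61.8 and 55.3 in homozygous libraries. All homozygous libraries exceeded all wild-type libraries, and the heterozygous libraries spanned both. Kcnn2 rose by 0.62 ± 0.188 (adjusted p = 0.0180), and by 0.66 (0.0333) without homozygous replicates 4 and 5 and 0.88 (0.0015) with the GC offset. Leaving out wild-type replicate 2 or 3 ended the call (0.0541 and 0.0677). Kcnt2, a sodium-activated channel gene, was at 39.6, 34.3, 16.8 and 30.5 CPM in wild-type, 43.7, 32.1, 37.4 and 44.6 in heterozygous and 36.9, 35.5, 61.8 and 59.8 in homozygous libraries. The rise was seen in homozygous replicates 4 and 5, with replicates 1 and 2 inside the wild-type range. Its call (0.65 ± 0.239, adjusted p = 0.0499) was lost without those 2 libraries (0.27, 0.523), with the GC offset (0.25, 0.359), and in 8 of the 12 fits that leave out 1 library (adjusted p up to 0.187; all but heterozygous 2, wild-type 1 and homozygous 1 and 2). Kcnma1, the large-conductance calcium-activated channel gene, was at 141 ± 12.6 and 154 ± 34.1 CPM in wild-type and homozygous mice, and Kcnn3 at 106 ± 10.1 and 104 ± 10.4, neither called.

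Among voltage-gated genes and their partners, Kcna2 and Kcnip4 rose while Kcna3 and Kcnc4 fell. Kcna2 was at 600, 501, 378 and 450 CPM in wild-type, 512, 474, 528 and 457 in heterozygous and 502, 638, 722 and 627 in homozygous libraries. The groups overlapped, and the rise of 0.37 ± 0.133 (adjusted p = 0.0451) was at 0.25 (0.252) without homozygous replicates 4 and 5 and 0.21 (0.199) with the GC offset. Its call ended in 9 of the 12 fits that leave out 1 library (all but heterozygous 2, wild-type 1 and homozygous 1), with adjusted p of 0.0525 to 0.169. Kcna3, a channel gene known from neurons and immune cells, was at 19.8, 25.7, 27.7 and 18.0 CPM in wild-type, 16.1, 17.1, 12.5 and 13.1 in heterozygous and 12.7, 13.5, 17.3 and 13.5 in homozygous libraries. Both mutant groups lay under all wild-type libraries and overlapped each other. Its fall of 0.67 ± 0.238 (adjusted p = 0.0405) was at -0.77 (0.0736) without homozygous replicates 4 and 5 and -0.21 (0.600) with the GC offset, and it ended when wild-type replicate 2 or 3, heterozygous replicate 1, or homozygous replicate 1, 2 or 5 was left out (0.0518 to 0.149).

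Kcnc4, a fast-inactivating channel gene, was at 51.3, 46.6, 58.3 and 55.3 CPM in wild-type, 34.7, 45.9, 30.0 and 33.5 in heterozygous and 36.2, 50.3, 28.0 and 24.8 in homozygous libraries. Homozygous replicate 2 lay in the wild-type range and the rest below it. Its call (-0.55 ± 0.203, adjusted p = 0.0494) was lost in 10 of the 12 fits that leave out 1 library (all but heterozygous replicate 2 and homozygous replicate 2; adjusted p of 0.0547 to 0.147), without homozygous replicates 4 and 5 (-0.27, 0.422) and with the GC offset (-0.12, 0.633). Kcnip4, a calcium-binding partner of A-type channels, was at 120, 119, 78.0 and 82.7 CPM in wild-type, 121, 113, 103 and 138 in heterozygous and 115, 134, 238 and 253 in homozygous libraries. Homozygous replicates 4 and 5 were above all other libraries, and the other 2 lay within the heterozygous range. Its call (0.87 ± 0.210, adjusted p = 0.00409) held with the GC offset (0.52, 0.0176) and without any single library, but the value was 0.34 (0.187) without homozygous replicates 4 and 5. In edgeR, Kcnip4 was also not called with the replicate number as a block (0.29, adjusted p = 0.348). The same held with each library's slope on GC content as a covariate (0.06, 0.902). The channels it binds, Kcnd2 and Kcnd3, were at 127 ± 25.1 and 169 ± 13.7 CPM in wild-type and 138 ± 15.5 and 179 ± 20.1 in homozygous mice, neither called.

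**Figure D3:**
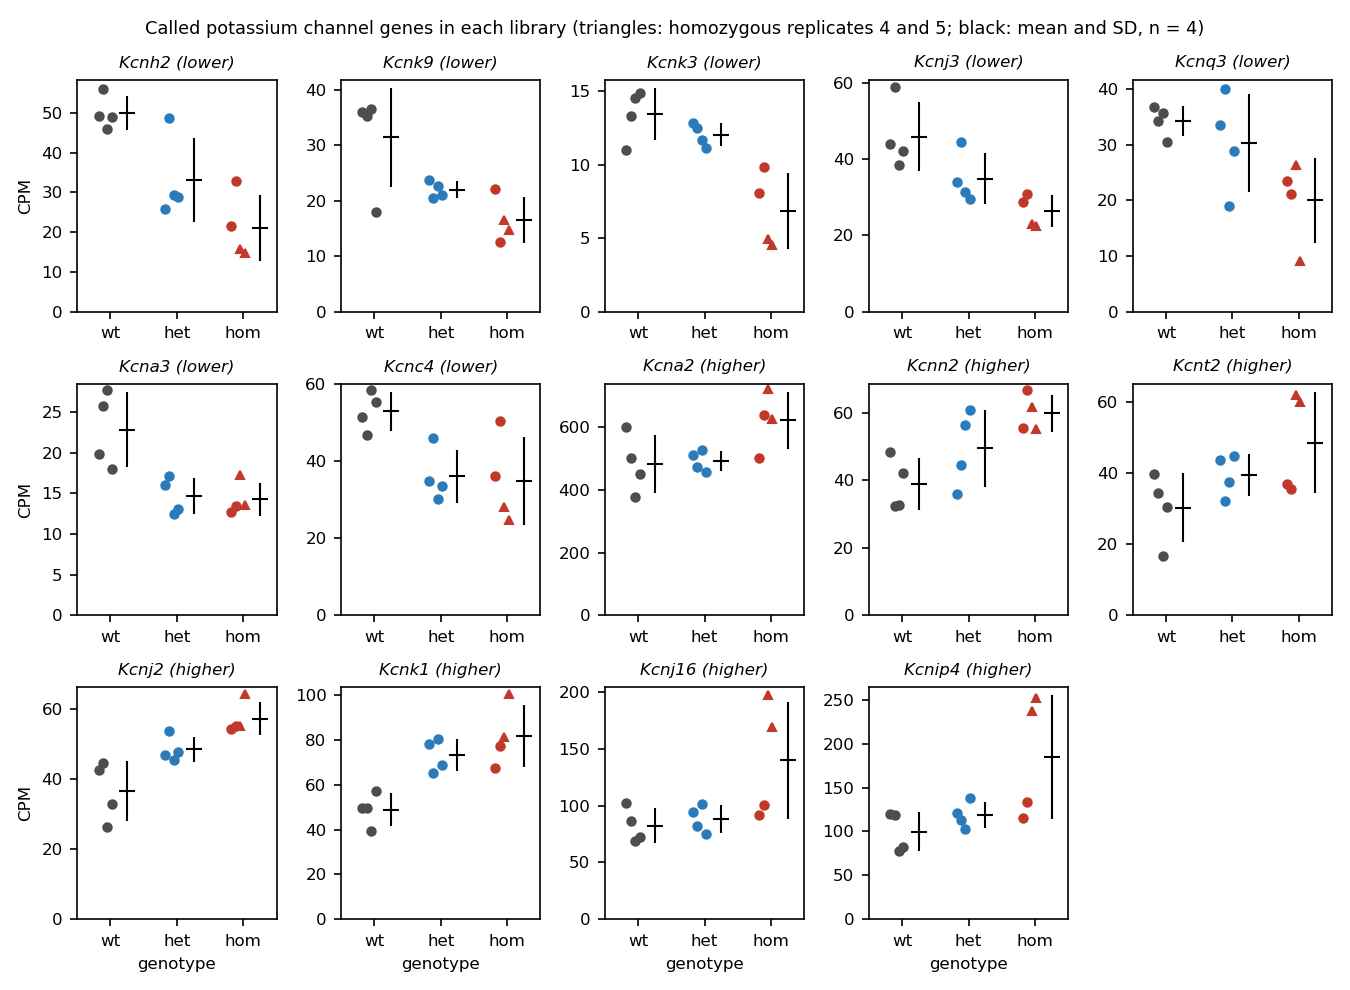
CPM of 14 of the called genes in each of the 12 libraries, with each genotype's mean and SD in black (wt, wild-type; het, heterozygous; hom, homozygous). Triangles are homozygous replicates 4 and 5, which alone are high for Kcnt2, Kcnj16 and Kcnip4, while all 4 homozygous libraries lie under the wild-type libraries for Kcnh2 and Kcnj3 and above them for Kcnk1.

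Members that missed the threshold with the smallest unadjusted p, beside Kcnj5 and Kcnk2, included Kcnv1 and Kcnab2. The silent subunit gene Kcnv1 was at 17.6, 8.56, 3.64 and 7.46 CPM in wild-type and 6.71, 15.7, 23.1 and 40.6 in homozygous libraries, with homozygous replicate 5 the highest and replicate 1 under 3 wild-type libraries (1.10 ± 0.430, adjusted p = 0.0629). The value was 0.34 (0.657) without homozygous replicates 4 and 5 and 0.79 (0.138) with the GC offset. The cytoplasmic subunit gene Kcnab2 was at 52.6 ± 2.10 CPM in wild-type and 38.4 ± 12.7 in homozygous mice (-0.40, adjusted p = 0.178), with -0.10 (0.800) without homozygous replicates 4 and 5 and -0.017 (0.959) with the GC offset. Kcng3, the most abundant silent subunit gene by CPM, was at 12.5 ± 2.16 and 16.5 ± 1.85 CPM in wild-type and homozygous mice (0.40, adjusted p = 0.262).

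Base composition moved with the fold changes. Members called higher had a median transcript GC content of 43.2% (36.6 to 54.4), and those called lower 56.5% (43.9 to 61.3). Over all genes tested, the medians were 44.9% for higher and 54.9% for lower calls. Pearson's r of GC content and log2 fold change was -0.487 across the 54 members and -0.472 across 10623 genes. Without homozygous replicates 4 and 5 these were -0.287 and -0.269. Genes share their libraries and are not independent, so r is a description. Some members changed against this trend. Kcnj3, Kcnq3 and Kcnk9 fell with GC contents of 43.9, 44.4 and 47.9%, and Kcnk1 and Kcnn2 rose with 51.8 and 54.4%. Each had a larger change under the GC offset. The offset removes the trend, so it enlarges changes that go against it by design, which is no separate evidence for these genes. Of the 15 calls, 9 were kept with the GC offset and 6 without homozygous replicates 4 and 5, and 5 under both, among them Kcnh2, Kcnk9, Kcnk1 and Kcnn2. With the slope on GC content as a covariate, 0 of 15 calls were kept. The lowest wild-type slope was above the highest homozygous slope (0.00245 against 0.00172), and the heterozygous slopes overlapped both groups. The fold changes under this covariate were -0.98 (adjusted p = 0.0926) for Kcnk9, -0.64 (0.313) for Kcna3 and 0.58 (0.172) for Kcnn2, against 0.06 (0.902) for Kcnip4.

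**Figure D4:**
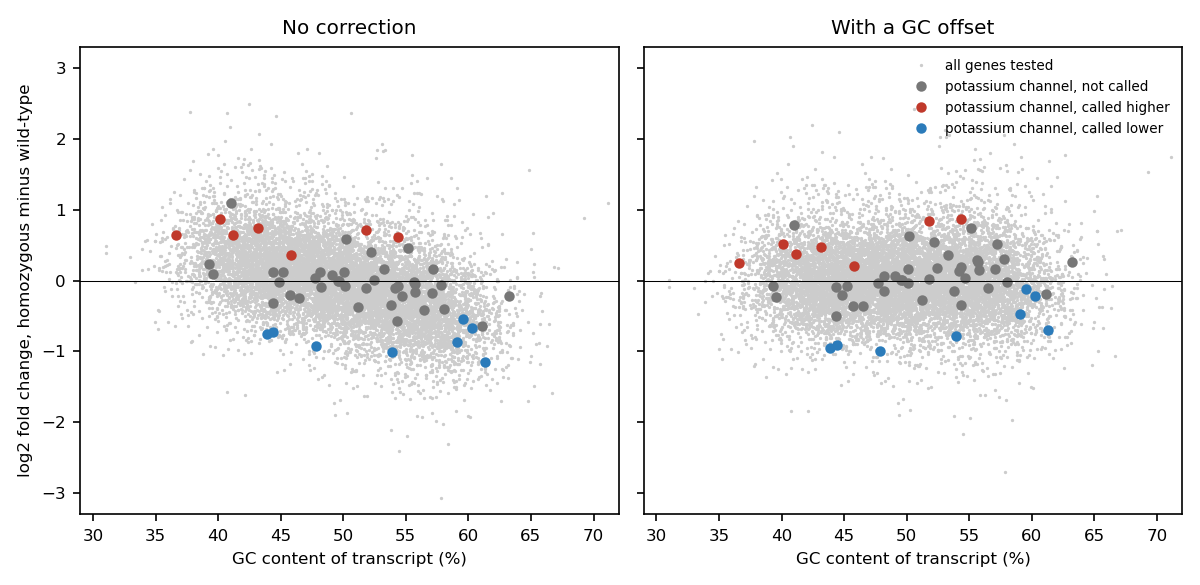
Log2 fold change of homozygous minus wild-type mice against transcript GC content, with all genes tested in grey and potassium channel genes as larger points. Without correction (left) fold changes fall with GC content, with r = -0.487 for the members, and with the GC offset (right) r is 0.03.

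**Figure D5:**
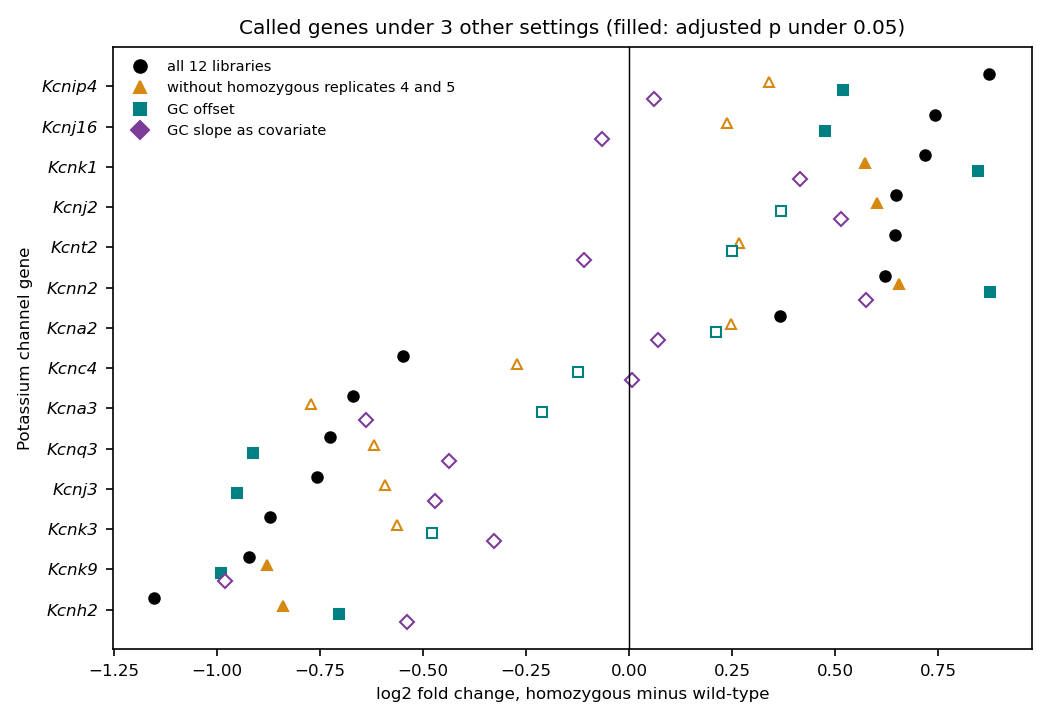
Log2 fold changes of 14 of the called genes with all libraries and under 3 other settings. Filled symbols passed an adjusted p of 0.05, which Kcnh2, Kcnk9, Kcnk1 and Kcnn2 did under the first 3 settings and no gene did with the GC slope as a covariate.

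The second comparison, heterozygous against wild-type, asks how the members respond to loss of 1 Wfs1 copy. In edgeR 0 of 54 were called (0.596% of all genes tested, 0.512% higher and 0.0838% lower), 7 had an unadjusted p under 0.05, DESeq2 called Kcnk1 (0.59, adjusted p = 0.0301), and limma-voom called Kcnk1, Kcnc4 and Kcnh2. In edgeR Kcnk1 differed by 0.57 ± 0.162 (adjusted p = 0.103), Kcnc4 by -0.54 ± 0.199 (0.215), Kcnh2 by -0.56 ± 0.224 (0.266) and Kcna3 by -0.60 ± 0.229 (0.231). The groups did not overlap in 6 of 54 members, or 11.1%, against 9.34% of all genes tested. The heterozygous mean lay between the wild-type and homozygous means for 15 of the 15 genes called between those 2, as it did for 96.3% of all genes called there.

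Between homozygous and heterozygous mice, edgeR called 0 of 54 members (2.2% of all genes tested, 1.74% higher and 0.456% lower), 9 had an unadjusted p under 0.05, DESeq2 called 2, among them Kcnj16, and limma-voom none. In edgeR Kcnj16 differed by 0.65 (adjusted p = 0.0843), Kcnip4 by 0.62 (0.0987) and Kcnv1 by 1.28 (0.0975). Without homozygous replicates 4 and 5 these values were 0.14 (0.873), 0.08 (0.936) and 0.52 (0.792), and with the GC offset 0.46 (0.119), 0.36 (0.223) and 1.06 (0.125). Without homozygous replicate 1, 4 members were called, 3 without replicate 2, and 0 without replicate 4, without replicate 5 or without both of these. The groups did not overlap in 3 of 54 members, or 5.56%, against 9.48% of all genes tested. These comparisons share their libraries with the first, so a likeness between them is not independent evidence.

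Proteins that assemble, anchor or gate the channels were followed as a list of 36 genes in the table, 31 of them tested. Between homozygous and wild-type mice 4 rose and 4 fell, so 25.8% were called, against 25.4% of all genes tested. Calm2, which encodes calmodulin, the calcium sensor bound to M-current and small-conductance channels, rose by 1.56 ± 0.176 (adjusted p = 3.2e-06). Calm3, which encodes the same protein, was called lower close to the adjusted p threshold of 0.05, next to Kcnc4 in the order of p. The synaptic scaffold gene Dlg2 rose by 0.70 ± 0.133 (adjusted p = 0.000616), and Lgi3, a secreted protein associated with axonal voltage-gated channels, fell by 0.91 ± 0.206 (0.00268). Calm2, Dlg2 and Lgi3 passed the test without homozygous replicates 4 and 5 and with the GC offset as well. The other calls included Gabbr2 (higher), Dlg4 and Cntn2 (lower).

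Potassium pumps, cotransporters and exchangers were 19 genes in the table, 16 of them tested. Here 1 rose and 5 fell, so 37.5% were called, against 25.4% of all genes tested (11.6% lower). Atp1b1, a beta subunit of the sodium pump, rose by 0.58 ± 0.102 (adjusted p = 0.00033). Fxyd1, a pump regulator, fell by 1.08 ± 0.308 (0.0127), and Slc24a3, a potassium-dependent sodium-calcium exchanger, by 0.44 ± 0.131 (0.0164). Without homozygous replicates 4 and 5, Atp1b1 passed the test and Fxyd1 and Slc24a3 did not (-0.996, adjusted p = 0.0588, and -0.36, 0.0875). With the GC offset Atp1b1 again passed, with Fxyd1 at -0.73 (0.0886) and Slc24a3 at -0.19 (0.262).

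Cell type markers were read in the same libraries, in which 25.4% of all genes tested were called. Neuron markers were higher for 5 of 9 tested and lower for 0, the other 4 having log2 fold changes of -0.31 to -0.08, with summed levels of 4624 to 5939 CPM in wild-type, 5810 to 7092 in heterozygous and 6906 to 8937 in homozygous libraries. Nefl and Nefm, the neurofilament genes, rose by 1.07 ± 0.134 and 1.64 ± 0.218 (adjusted p = 1.2e-05 and 1.7e-05), and both passed the test without homozygous replicates 4 and 5 and with the GC offset. Astrocyte markers were higher for 2 and lower for 1 of 10 (4481 to 5631 CPM in wild-type, 5358 to 6885 in homozygous libraries). Log2 fold changes of the astrocyte markers were above 0 for 5 and under 0 for 5 (median 0.03), and Gfap was the lower call. Aqp4 was at 176 ± 38.2 and 332 ± 113 CPM (0.91, adjusted p = 0.00112), and its value was 0.45 (0.0391) without homozygous replicates 4 and 5 and 0.59 (0.00243) with the GC offset. Oligodendrocyte markers were higher for 2 and lower for 2 of 10 (3405 to 4255 and 2355 to 3780 CPM), and precursor markers higher for 1 and lower for 2 of 8 (439 to 539 and 379 to 501 CPM). Microglia markers had 0 calls of 7 (262 to 300 and 254 to 306 CPM), and endothelium and pericyte markers fell for 2 of 11 (243 to 297 and 228 to 269 CPM). Ependyma markers rose for 1 of 3, choroid plexus markers changed for 0 of 2, and telencephalon markers for 0 of 5 (101 to 122 and 78.3 to 94.8 CPM). Thalamus markers rose for 2 of 6 (318 to 402 and 386 to 571 CPM). Hypothalamus markers were present (945 to 1341 and 1014 to 1387 CPM), with 1 higher and 1 lower of 9. Of the pituitary markers, Gh, Prl and Pou1f1 were at 0, and only 1, Pomc, was tested. Pomc was at 15.9 ± 5.49 CPM in wild-type and 6.86 ± 4.50 in homozygous mice (-1.12, adjusted p = 0.0367 in edgeR). Its call ended without homozygous replicates 4 and 5 (-0.76, 0.189) and with the GC offset (-0.73, 0.152). A change of pituitary tissue cannot be read from 1 tested gene. The part of cell composition in the changes of the channel genes was not tested, and fewer cells of a type cannot be told apart from less RNA per cell.

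Position on the chromosome and overlapping genes also bear on these values. In the GRCm38 annotation Kcnh2, Kcnk3 and Kcnip4 are the 3 members on chromosome 5, where Wfs1 lies, at 12.6, 6.34 and 11.4 megabases from it. Each was called, as were 25.4% of all genes tested, and the calls of Kcnk3 and Kcnip4 ended without homozygous replicates 4 and 5. The labels do not say what the chromosome around the mutant allele derives from, and its part was not tested. The neighbours Kcnj16 and Kcnj2, 38.2 kb apart on chromosome 11, both rose, whereas Kcna3 and Kcna2, 63.1 kb apart on chromosome 3, fell and rose, and Kcnj9 and Kcnj10, 11.9 kb apart on chromosome 1, were not called. For 6 of the 15 called genes (Kcnt2, Kcnj3, Kcnk3, Kcnip4, Kcnk1 and Kcnn2) an exon of another gene overlaps on the opposite strand. The same is true of Kcnq5, Kcnj9 and Kcnk2, which were not called, so such overlap is not particular to the called genes. The strand of the counts is not given in the sources used here, so reads of the overlapping gene cannot be told apart where they share bases.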

How the data were processed

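Hypothalamus RNA of 12 mice was sequenced, 1 library each. The authors deposited raw counts per gene symbol, which the values bear out as whole numbers with a different total in each library. Reads were placed on mouse build mm10 per the submitters' processing notes, while aligner, counter, annotation and strand are not given in the sources used. The labels call the replicates individuals and name no litter or batch, so p-values measure the spread between the libraries of these animals. With 1 library per animal, differences between animals and between library preparations cannot be told apart. From the counts, edgeR 4.0.16 in R 4.3.3 was fitted to all 12 libraries on genotype with TMM factors (0.908 to 1.08) and edgeR's own filter for low counts. Quasi-likelihood F tests were adjusted over the 10737 genes tested (common biological coefficient of variation 0.148). DESeq2 1.42.0 and limma-voom 3.58.1 were alternatives, with others listed in the closing section. The limma-voom fit used quality weights, which weight each library by its quality. CPM are TMM-scaled. GENCODE M21 held 20717 of the symbols and a further 1886 under older names, with 1417 unmatched. All 94 members matched. Transcript GC content and length come from the principal protein-coding transcript. SE is the log2 fold change over the root of F. The 18 pairs of libraries within genotypes were not identical. Some members, list genes and sequences that the rules cover are counted but not reported here by name. The members, the lists and the rules were chosen with earlier results of these data known. Named members are the called genes, the gene with the highest mean CPM of each family and the 5 smallest p among those not called, with up to 4 called genes of each other list and 2 of each marker list. Kcnj6, Kcnj9, Kcnq5, Kcnn3, Kcnd2, Kcnd3 and the genes ordered by level were named beside their families, and the remaining calls of the partner list after their values were seen.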

Additional observations from a re-analysis of the deposited data

Results flagged for a closer look

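In groups of 4 libraries, a highest or lowest value was singled out when its gap to the nearest other, divided by the range, passed Dixon's critical value at the 95% level. Of 72 groups (24 named genes in 3 genotypes), 6 did, and chance alone singles out about 1 in 20. Heterozygous replicate 2 stood above the rest for Kcnh2, at 48.8 against 25.7 to 29.3 CPM (ratio 0.845). Homozygous replicate 5 stood above the rest for Kcnj2, at 64.4 against 54.3 to 55.2 CPM (0.91). Wild-type replicate 5 stood below the rest for Kcnk9, at 18.0 against 35.2 to 36.4 CPM (0.933), and above the rest for Kcnk2, at 60.9 against 47.6 to 49.5 CPM (0.852). Homozygous replicate 2 was high for Kcng3, at 19.3 against 15.4 to 15.8 CPM (0.902). Wild-type replicate 2 was high for Kcnj10, at 982 against 737 to 776 CPM (0.841).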

How the results depend on the processing

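Between homozygous and wild-type mice, the 15 potassium channel calls became 0 with the GC slope as a covariate, 5 with a replicate block and 6 without homozygous replicates 4 and 5, and 8 to 16 when 1 library was left out. Over the whole table, the 2723 calls became 473, 1322 and 1344, and 1856 to 3076 when 1 library was left out. DESeq2 kept 12 of the 15 potassium channel calls and limma-voom 10. Kcna3, Kcnk3 and Kcnc4 lost the call in DESeq2 (adjusted p = 0.095, 0.080 and 0.080) and in limma-voom (0.075, 0.061 and 0.059). Kcnt2 and Kcnq3 lost it in limma-voom alone (0.0759 and 0.0541). Between heterozygous and wild-type mice, 0 members became 1 with DESeq2, 3 with limma-voom, 1 with those 2 genotypes alone and 1 without homozygous replicates 4 and 5, and stayed at 0 when 1 library was left out. The 64 calls of the whole table became 239 with DESeq2, 394 with limma-voom, 382 with those 2 genotypes alone, 430 without homozygous replicates 4 and 5, 147 with the GC offset, 264 with the GC slope, 280 with no filter and 158 with the block, and 3 to 218 when 1 library was left out. Between homozygous and heterozygous mice, 0 members became 2 with DESeq2 and 4 with no filter, and 0 to 4 when 1 library was left out. The 236 calls of the whole table became 448 with DESeq2, 727 with no filter, 78 with limma-voom, 44 with those 2 genotypes alone, 1 with the GC slope, 32 with the block and 1 without homozygous replicates 4 and 5, and 6 to 867 when 1 library was left out. With the GC slope, Kcnt2 reversed to -0.11, Kcnc4 to 0.0083 and Kcnj16 to -0.066. The cause of these shifts was not tested. Of 1656 single-gene values, 105 lost the call and 31 gained it, with the 3 reversals of called values above. The other 1517 stayed on their side of the threshold, and 91 of these, all uncalled, changed sign. The replicate numbers are not said to pair animals. Correlations of deviations were -0.265 to 0.337 between libraries with the same number (8 pairs) and -0.225 to 0.243 between different numbers (32 pairs), and the block leaves out the homozygous column with no numbered label. Depth limits the low genes: 34 members were counted and not tested, and Kcnk3 rests on 4 to 30 reads a library.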
